A study of Mus musculus with 9 samples.

Results

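The transcripts of 10 mouse genes that encode mesenchymal and progenitor surface markers were followed in 9 RNA sequencing libraries. The genes are Eng, Thy1, Cd44, Ly6a, Ly6c1, Cd34, Nt5e, Vcam1, Alcam and Mcam. They were chosen by name, 10 of the 54532 genes in the deposited table, and each symbol matched 1 gene. All 10 passed the filter on low counts and were tested in every comparison.

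Mesenchymal stromal cells are usually described by a panel of surface proteins. CD105 (Eng), CD90 (Thy1), CD44 and CD73 (Nt5e) are the classic ones, CD106 (Vcam1), CD166 (Alcam) and CD146 (Mcam) are adhesion molecules often added to them, and Sca-1 (Ly6a) and CD34 mark many mouse progenitor cells. In heart explant cultures such markers are used to describe cardiosphere derived cells (CDCs). TGF-β signals through a type I receptor kinase, which SB431542 inhibits, and endoglin, the product of Eng, is itself a co-receptor of this pathway.

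Each group had 3 libraries from C57BL/6 cells, numbered as replicates 1, 2 and 3. The pECDC group held untreated primary CDCs. The iECDC group held untreated CDCs immortalized by a virus that delivers the human telomerase gene hTERT, selected with puromycin and grown to passage 30. The remaining group, called SB431542-treated cells, was labelled as immortalized CDCs at passage 30 that received SB431542 for 3 days. By these labels the iECDC and SB431542-treated groups shared the hTERT virus and the passage, and differed by the inhibitor. The labels name no vehicle for the untreated cells and do not say whether the replicates were separate cultures, so p-values measure only the spread between these libraries, which may be technical. The study's methods name another source for the treated cells, an epithelial clone derived from pECDCs. Cdkn2a, which encodes cell cycle inhibitors and had 407 to 562 counts in pECDC libraries, had 0, 1 and 0 counts in iECDC libraries and 0 in all 3 treated libraries. Cdkn2a belongs to a list of 10 genes of cell identity, chosen with earlier results of these data known. Against pECDCs 9 of them were tested, and all 9 were lower in iECDCs and in treated cells. Between treated cells and iECDCs 5 were tested and 0 were called. The 5 were Renbp and the Y-linked genes Ddx3y, Eif2s3y, Kdm5d and Uty. Cdkn2a, Barx1 and Efemp1 had too few counts to be tested there. Efemp1 had means of 0.467 FPKM in treated cells and 0.0903 FPKM in iECDCs, without overlap of the libraries. Barx1, a transcription factor gene of that list, had means of 11.7 FPKM in pECDCs, 0.0263 FPKM in iECDCs and 0.0113 FPKM in treated cells. Epithelial and mesothelial markers were mixed in the treated libraries. Epcam had no count and Cdh1 had 1, 2 and 1 counts, but Krt19, a keratin, had 758, 1480 and 765 counts against 821 to 1167 in iECDCs. Upk3b, a uroplakin of mesothelium, had 72, 97 and 87 counts against 4 to 9, and Wt1, an epicardial transcription factor, had 43, 14 and 39 counts against 0 to 2. Krt19 and Wt1 are named here after their values were seen. Which cells were treated was not settled by these values.

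Libraries held 16568306 to 23951392 counts in all. Replicates were compared by the chi-square of their counts per degree of freedom, which is near 1 for sampling noise alone. It was 2.70 to 4.23 among pECDC libraries, but 24.9 and 30.8 between iECDC replicate 3 and the other iECDC libraries, and 70.3 and 71.5 between SB431542-treated replicate 2 and the other treated libraries. Both libraries therefore stand apart from their group, and results are also given without them where they change. The drug's pathway was first checked in targets of TGF-β. Pmepa1, a membrane protein gene induced by TGF-β that dampens its signalling, had 64.1, 66.4 and 70.5 FPKM (counts scaled to gene length and library size) in iECDC replicates 1, 2 and 3, and 2.54, 5.27 and 2.32 FPKM in the treated replicates. Every treated library was far below every iECDC library, and treated replicate 2 kept the highest level of the 3. Of 12 target genes, 7 were lower in treated cells, 1 was higher and 4 did not pass the test, with a median log2 fold change of -1.96 against 0.00 over all genes tested. The higher one was Tgfbi, at 7.01 FPKM in treated cells against 0.608 FPKM in iECDCs (log2 fold change 3.53, edgeR, adjusted p = 0.00405). Pmepa1 is thus not typical of every target, and the targets were listed with earlier results of these data known.

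SB431542-treated cells were then compared with iECDCs, the comparison that by the labels addresses the response to the inhibitor. Ly6c1, Ly6a, Vcam1 and Cd34 were higher in treated cells, Cd44, Nt5e and Alcam were lower, and Eng, Thy1 and Mcam did not pass the test. The 4 higher members had log2 fold changes from 0.84 to 2.82, and the 3 lower ones from -1.97 to -1.66. A gene was called when its p-value from edgeR's quasi-likelihood test, adjusted by Benjamini-Hochberg over all 13559 genes tested, was under 0.05. By this rule 30.0% of all genes tested were called, 16.0% higher and 14.0% lower, so 7 called members of 10 stand beside a large change across the whole transcriptome. The median log2 fold change of the members was -0.14, against 0.00 for all genes. The FPKM values of the groups did not overlap in 7 members, against 46.5% of all genes. In bulk RNA, fewer cells carrying a marker and less of its RNA per cell cannot be told apart.

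**Figure D1:**
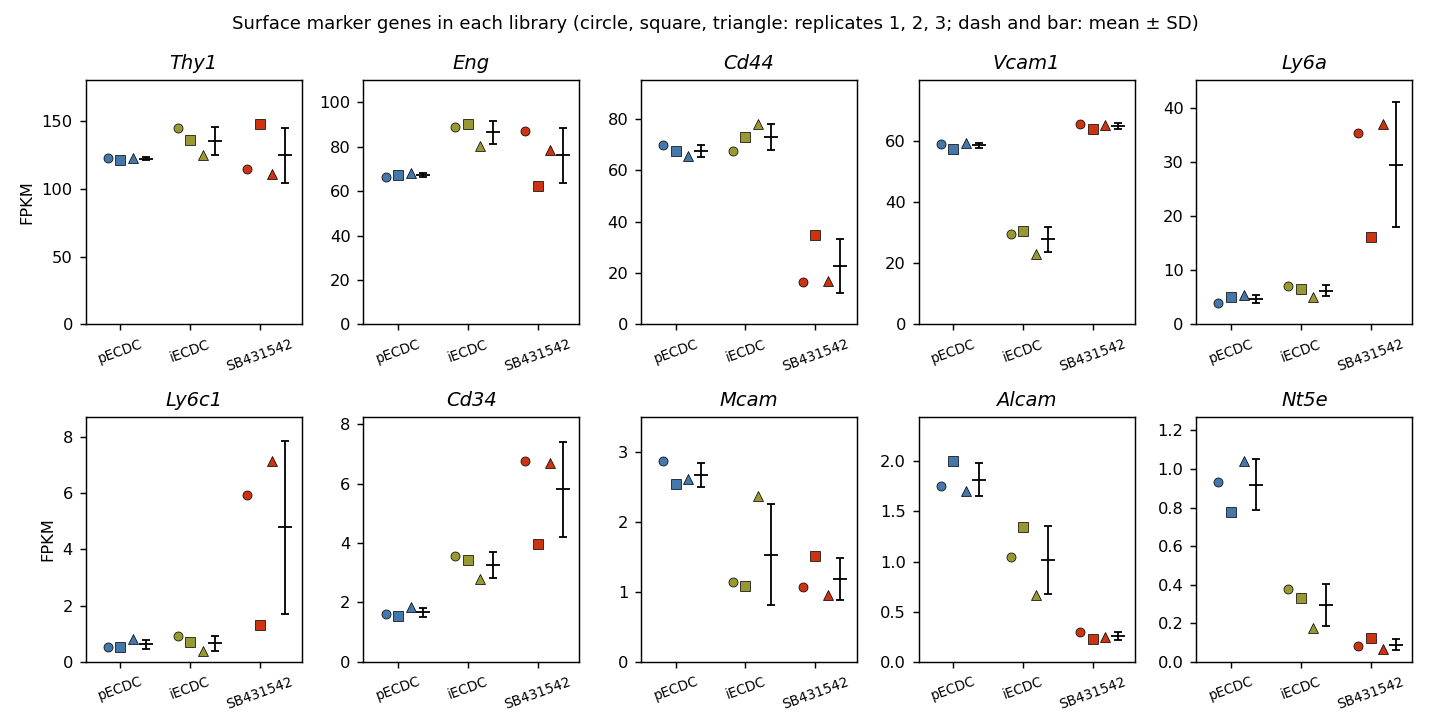
FPKM of each of the 10 genes (vertical axes, linear and starting at 0, scaled per gene) in the 9 libraries, by group along the horizontal axis. Circle, square and triangle are replicates 1, 2 and 3, and the dash with its bar is the mean ± SD of 3 libraries. All 3 treated libraries lie below the iECDC libraries for Cd44, Alcam and Nt5e, and above them for Vcam1, Ly6a, Ly6c1 and Cd34, with the treated square (replicate 2) nearer to iECDCs for Cd44, Ly6a, Ly6c1 and Cd34.

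For orientation, the 250 bases before the RefSeq start of a gene are shown for 4 members: Cd44, which fell, Ly6c1 and Cd34, which rose, and Eng, which did not pass the test. They lie on GRCm38.p6 at chr2:102901666-102901915 (minus strand) for Cd44, chr15:75048838-75049087 (minus strand) for Ly6c1, chr1:194938571-194938820 (plus strand) for Cd34 and chr2:32646345-32646594 (plus strand) for Eng, each written 5′ to 3′ on the strand of the gene. RefSeq gave such a window for 7 of the 10 members. Capitals mark matches, on either strand, to 4 short motifs: the SMAD box CAGAC, the AP-1 site TGANTCA, the TATA box TATAAA and the GC box GGGCGG.
Cd44: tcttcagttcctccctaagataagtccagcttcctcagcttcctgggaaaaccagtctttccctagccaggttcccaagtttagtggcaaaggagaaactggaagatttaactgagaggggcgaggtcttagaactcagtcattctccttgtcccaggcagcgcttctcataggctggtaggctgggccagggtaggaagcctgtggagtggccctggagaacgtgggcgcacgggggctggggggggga
Ly6c1: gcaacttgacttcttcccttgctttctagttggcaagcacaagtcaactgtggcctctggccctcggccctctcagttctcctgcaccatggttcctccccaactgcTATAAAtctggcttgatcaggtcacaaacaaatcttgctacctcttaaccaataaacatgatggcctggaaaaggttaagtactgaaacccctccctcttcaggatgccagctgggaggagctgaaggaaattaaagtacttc
Cd34: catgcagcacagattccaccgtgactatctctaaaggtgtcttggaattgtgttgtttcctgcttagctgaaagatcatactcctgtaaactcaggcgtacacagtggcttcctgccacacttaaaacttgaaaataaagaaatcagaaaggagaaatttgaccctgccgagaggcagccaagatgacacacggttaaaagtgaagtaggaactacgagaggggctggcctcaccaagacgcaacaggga
Eng: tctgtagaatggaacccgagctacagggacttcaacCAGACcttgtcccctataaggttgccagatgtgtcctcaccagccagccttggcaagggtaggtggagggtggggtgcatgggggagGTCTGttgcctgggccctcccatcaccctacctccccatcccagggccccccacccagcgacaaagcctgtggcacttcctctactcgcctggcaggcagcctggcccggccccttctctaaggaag
The Eng window held 2 SMAD boxes, the Ly6c1 window shown held 1 TATA box, no match in these 4 windows overlapped another, and the windows of Cd44 and Cd34 held none of these letters. RefSeq has another Ly6c1 start, whose window at chr15:75048664-75048913 lies in part inside the deposited gene, is not shown and held 1 SMAD box and no TATA box. The Cd34 window shown reaches 2 bases into the deposited gene. The windows of Nt5e, Alcam and Mcam reach further into theirs, by 250, 250 and 189 bases, and are not shown. Nt5e held 2 SMAD boxes and 4 GC boxes, Alcam 2 GC boxes and Mcam 5 GC boxes. Over all 32536 RefSeq windows of this length, 42.2% held a SMAD box, 6.73% an AP-1 site, 12.3% a TATA box and 33.0% a GC box. A match describes letters in the window and says nothing of a factor at work there.

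Ly6a and Ly6c1 showed the largest increases among the members. They encode small proteins held at the cell surface by a lipid anchor. Ly6a, which encodes Sca-1 (chromosome 15, 74994877 to 74998031), had 3.93, 5.0 and 5.37 FPKM in pECDC replicates 1, 2 and 3, 7.11, 6.51 and 5.08 FPKM in iECDC replicates and 35.3, 16.2 and 37.0 FPKM in treated replicates, the order used for every gene that follows. All treated libraries were above all iECDC libraries, and replicate 2 was well below the other two. The mean rose from 6.23 ± 1.05 to 29.5 ± 11.6 FPKM (SD, n = 3 each), 4.75-fold in the fit (log2 fold change 2.25, standard error 0.316, edgeR, adjusted p = 0.00262), and the call held in all 16 alternatives.

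Ly6c1 encodes a form of the surface antigen Ly-6C (chromosome 15, 75044018 to 75048830). Its FPKM was 0.535, 0.509 and 0.817 in pECDCs, 0.916, 0.689 and 0.388 in iECDCs, and 5.92, 1.30 and 7.13 in treated cells. The groups did not overlap, but treated replicate 2 stood much closer to iECDCs than to the other treated libraries. These levels rest on 10 to 31 counts in iECDCs and on 174, 46 and 216 counts in treated cells. The log2 fold change was 2.82 with a standard error of 0.622, or 7.07-fold (edgeR, adjusted p = 0.0132). It passed in 16 of 17 alternatives and missed without iECDC replicate 2, at 2.83 with an adjusted p of 0.053 in edgeR. Ly6a and Ly6c1 share sequence: 19.0% of the 50-base stretches of Ly6a occur in another gene, 15% in Ly6c1, and 32.8% of those of Ly6c1 do, 21.5% in Ly6c2. Reads could thus have been split between them, and both are uncertain to that extent. Ly6c2 was counted at 0 in all 9 libraries. Among 18 other genes of the Ly6 and urokinase receptor family 4 were tested. Lynx1, a modulator of nicotinic acetylcholine receptors, was higher (log2 fold change 0.86, edgeR, adjusted p = 0.00407). Plaur, the urokinase receptor, was lower (log2 fold change -1.84, edgeR, adjusted p = 0.00123). Ly6e and Ly6k, named after their values were seen, did not pass (0.32 and 0.19, edgeR, adjusted p = 0.08 and 0.332).

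Cd34 encodes a sialomucin of progenitor and endothelial cells (chromosome 1, 194938819 to 194961279). FPKM values were 1.61, 1.55 and 1.83 in pECDCs, 3.57, 3.44 and 2.77 in iECDCs, and 6.75, 3.95 and 6.70 in treated cells. The 3 groups formed 3 separate steps, with treated replicate 2 just above the iECDC libraries. The mean rose from 3.26 ± 0.432 in iECDCs to 5.80 ± 1.60 FPKM (SD, n = 3 each) in treated cells, with a log2 fold change of 0.84 (standard error 0.217, edgeR, adjusted p = 0.0229). This call was less firm than those of Ly6a and Ly6c1. It held in 11 of 16 alternatives and was lost without treated replicate 1 or 3 (log2 fold changes 0.72 and 0.73, edgeR, adjusted p = 0.082 and 0.077) and without iECDC replicate 1, 2 or 3 (0.91, 0.87 and 0.72, edgeR, adjusted p = 0.0648, 0.068 and 0.0736). Leaving out treated replicate 2 gave 1.05 with an adjusted p of 0.000131 in edgeR.

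The adhesion molecules moved in different directions. Cd44, the receptor for the matrix polysaccharide hyaluronan (chromosome 2, 102811141 to 102901665), had 69.8, 67.4 and 65.4 FPKM in pECDCs, 67.7, 73.0 and 78.1 FPKM in iECDCs, and 16.6, 35.0 and 17.1 FPKM in treated cells. Both untreated groups lay in one narrow band, and the treated libraries lay well below it, replicate 2 least so. Cd44 fell by 1.66 on the log2 scale (standard error 0.278), a 3.16-fold drop (edgeR, adjusted p = 0.00489), and the call held in all 16 alternatives.

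Vcam1 encodes an immunoglobulin-type ligand of integrins on leukocytes (chromosome 3, 116109949 to 116129688). In FPKM it was at 58.9, 57.4 and 59.1 in pECDCs, at 29.7, 30.6 and 23.1 in iECDCs, and at 65.5, 63.7 and 65.2 in treated cells. The treated libraries were nearly alike, replicate 2 included, and lay above the iECDC libraries and slightly above the pECDC libraries. Vcam1 rose 2.35-fold over iECDCs (log2 fold change 1.23, standard error 0.139, edgeR, adjusted p = 0.0012), in all 16 alternatives. Its coefficient of variation in treated cells was 1.53%, the lowest of the members, while that of Ly6c1 was 64.2%.

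Alcam encodes an adhesion molecule that binds itself and CD6 (chromosome 16, 52248996 to 52454074). It was at 1.75, 2.0 and 1.70 FPKM in pECDCs, 1.04, 1.34 and 0.667 FPKM in iECDCs, and 0.296, 0.227 and 0.249 FPKM in treated cells. Here too the groups separated in 3 steps, downward, and treated replicate 2 was the lowest library of all. The fall from iECDCs was 3.92-fold (log2 fold change -1.97, standard error 0.294, edgeR, adjusted p = 0.0032) and held in all 16 alternatives. Mcam, the product of which is a laminin-binding adhesion molecule of pericytes and endothelial cells (chromosome 9, 44134469 to 44142727), had 2.87, 2.55 and 2.61 FPKM in pECDCs, 1.14, 1.09 and 2.37 FPKM in iECDCs, and 1.07, 1.52 and 0.958 FPKM in treated cells. Treated and iECDC libraries overlapped, and iECDC replicate 3 was near the pECDC level. Its log2 fold change of -0.35 did not pass (interval of 1.96 standard errors either side, -1.02 to 0.32, edgeR, adjusted p = 0.46), and without iECDC replicate 3 it was 0.09.

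Nt5e encodes the ecto-enzyme that turns extracellular AMP into adenosine (chromosome 9, 88327197 to 88372092). It was the lowest member in iECDCs and in treated cells, with 0.934, 0.777 and 1.04 FPKM in pECDCs, 0.380, 0.332 and 0.174 FPKM in iECDCs, and 0.0795, 0.122 and 0.0643 FPKM in treated cells. All treated libraries were below all iECDC libraries, on 12, 22 and 10 counts against 66, 47 and 23. The log2 fold change was -1.72 (standard error 0.389, edgeR, adjusted p = 0.0145). It passed in 12 of 16 alternatives. The call was lost without treated replicate 1 or 3 (-1.64 and -1.53, edgeR, adjusted p = 0.0594 and 0.0573) and without iECDC replicate 1 or 2 (-1.50 and -1.64, edgeR, adjusted p = 0.069 and 0.0589).

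The co-receptor Eng (chromosome 2, 32646595 to 32682669) had 66.3, 67.4 and 68.1 FPKM in pECDCs, 88.6, 90.2 and 80.2 FPKM in iECDCs, and 87.1, 62.4 and 78.5 FPKM in treated cells. The treated libraries overlapped the iECDC range, and replicate 2, the lowest, was below every other library. Against iECDCs the log2 fold change was -0.17, with an interval of -0.46 to 0.12 (edgeR, adjusted p = 0.397). Eng overlaps Fpgs on the opposite strand, which had mean levels of 9.25 FPKM in iECDCs and 6.99 FPKM in treated cells.

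Thy1, a lipid-anchored immunoglobulin-type protein (chromosome 9, 44043384 to 44048579), had the highest level of the members in every group. It was at 123, 121 and 123 FPKM in pECDCs, 145, 136 and 125 FPKM in iECDCs, and 115, 148 and 111 FPKM in treated cells. Treated replicate 2 was the highest of all libraries and the other two treated libraries were the lowest, so the groups overlapped only through replicate 2. The log2 fold change of -0.10 did not pass (interval -0.38 to 0.18, edgeR, adjusted p = 0.608). Leaving out both libraries that stood apart gave -0.30 with an adjusted p of 9.92e-05 in edgeR, and Thy1 was then a further lower member, 4 higher and 4 lower in all.

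**Figure D2:**
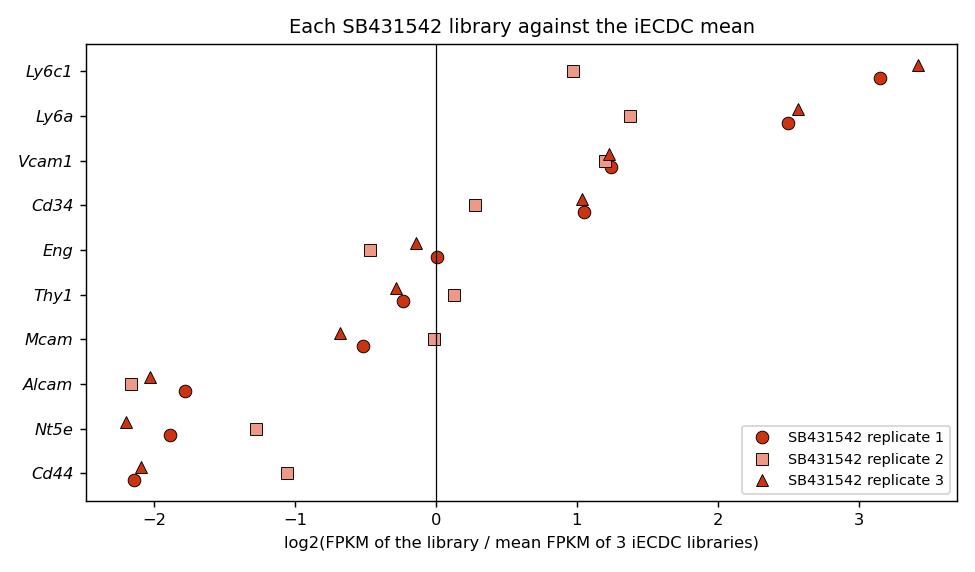
log2 ratio of each SB431542-treated library to the mean of the iECDC libraries, from FPKM, for the 10 genes along the axis; dark circle, pale square and dark triangle are treated replicates 1, 2 and 3 and the line at 0 is the iECDC mean. Replicate 2 lies nearer to 0 than the other two for Cd44, Ly6a, Ly6c1, Cd34, Nt5e, Vcam1 and Mcam, at 0.97 for Ly6c1 against 3.15 and 3.42, and on the far side of 0 from them for Thy1.

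Treated replicate 2 was placed against the other treated libraries for each member on a scale of log2(CPM + 1), counts per library scaled by TMM. It lay between the iECDC mean and both other treated libraries in 6 of 10 members, and in 47.2% of all 13559 genes tested. All 6 were called members, of which there were 7, and among the 4061 called genes the share was 80.5%. On that scale, which understates changes of genes with few counts, it covered 24.8% of the shift of the other two for Ly6c1, 28.1% for Cd34, 49.6% for Cd44, 53.8% for Ly6a, 68.4% for Nt5e, 97.7% for Vcam1 and 111% for Alcam. For Mcam replicate 2 lay on the far side of the iECDC mean, at -17.5% of the shift, whereas its log2 ratio of FPKM to the iECDC mean was -0.01, on the same side as the other two. Thy1 was at -62.2% and Eng at 836%. For Eng this figure is unstable, since the other treated libraries hardly shifted, at log2 ratios of FPKM of 0.01 and -0.14. The distance of replicate 2 from iECDCs thus differed widely between the called members. Without it, the same 7 members were called, with log2 fold changes of 3.26 for Ly6c1, 2.54 for Ly6a, 1.24 for Vcam1, 1.05 for Cd34, -1.89 for Alcam, -2.04 for Nt5e and -2.10 for Cd44.

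The treated cells were also set against pECDCs, a comparison that by the labels differs in hTERT, passage and inhibitor at once, so these cannot be told apart. It shares the treated libraries with the comparison above. Of the members 3 were higher in treated cells (Ly6c1, Ly6a and Cd34) and 4 were lower (Nt5e, Alcam, Cd44 and Mcam), where 34.8% of all genes tested were called, 17.9% higher and 17.0% lower. Groups did not overlap in 8 members, against 51.5% of all genes. The log2 fold changes were 2.94 for Ly6c1, 2.64 for Ly6a and 1.81 for Cd34, and -3.34 for Nt5e, -2.81 for Alcam, -1.55 for Cd44 and -1.16 for Mcam. Nt5e was 10.1-fold lower (edgeR, adjusted p = 0.000297), the largest difference of a member in any comparison. Ly6c1 lost its call without pECDC replicate 1 or 2 (2.83 and 2.82, edgeR, adjusted p = 0.0568 and 0.0547). Vcam1 did not pass, at a log2 fold change of 0.16 (interval 0.02 to 0.29, edgeR, adjusted p = 0.115), although all 3 treated libraries were above all pECDC libraries. Leaving out treated replicate 2 changed the call of 3 members. Without it Eng was higher (0.31, edgeR, adjusted p = 1.52e-05), Vcam1 was higher (0.17, edgeR, adjusted p = 0.00149) and Thy1 was lower (-0.10, edgeR, adjusted p = 0.0435, against 0.04 with it).

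Untreated iECDCs and pECDCs were compared to show the levels from which the treated cells departed. These libraries also serve as the controls above. Of the members 2 were higher in iECDCs (Cd34 and Eng) and 3 were lower (Nt5e, Vcam1 and Alcam), where 16.4% of genes were called, 7.21% higher and 9.21% lower. In 7 members the groups did not overlap, against 39.9% of all genes. Nt5e fell by 1.62 (standard error 0.242, edgeR, adjusted p = 0.00252) and Vcam1 by 1.09 on the log2 scale (standard error 0.104, edgeR, adjusted p = 0.000233). Alcam fell by 0.84 (standard error 0.208, edgeR, adjusted p = 0.0249), a call that held in 9 of 15 alternatives. It was lost without pECDC replicate 1, 2 or 3 (edgeR, adjusted p = 0.0825, 0.107 and 0.075), without iECDC replicate 1 (edgeR, adjusted p = 0.0532), with all 9 libraries in the fit (edgeR, adjusted p = 0.0562) and on log2(FPKM + 0.1) (limma, adjusted p = 0.0518). Eng, at 0.35, passed in 12 of 15 alternatives and missed with all 9 libraries in the fit (edgeR, adjusted p = 0.136) and without pECDC replicate 1 or 2 (edgeR, adjusted p = 0.0575 and 0.0556). Mcam missed at -0.84 (standard error 0.259, edgeR, adjusted p = 0.057), and without iECDC replicate 3 it passed at -1.27 (edgeR, adjusted p = 5.04e-06). Without that library Thy1 (0.19, edgeR, adjusted p = 0.00186) and Ly6a (0.51, edgeR, adjusted p = 0.0137) passed too.

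**Figure D3:**
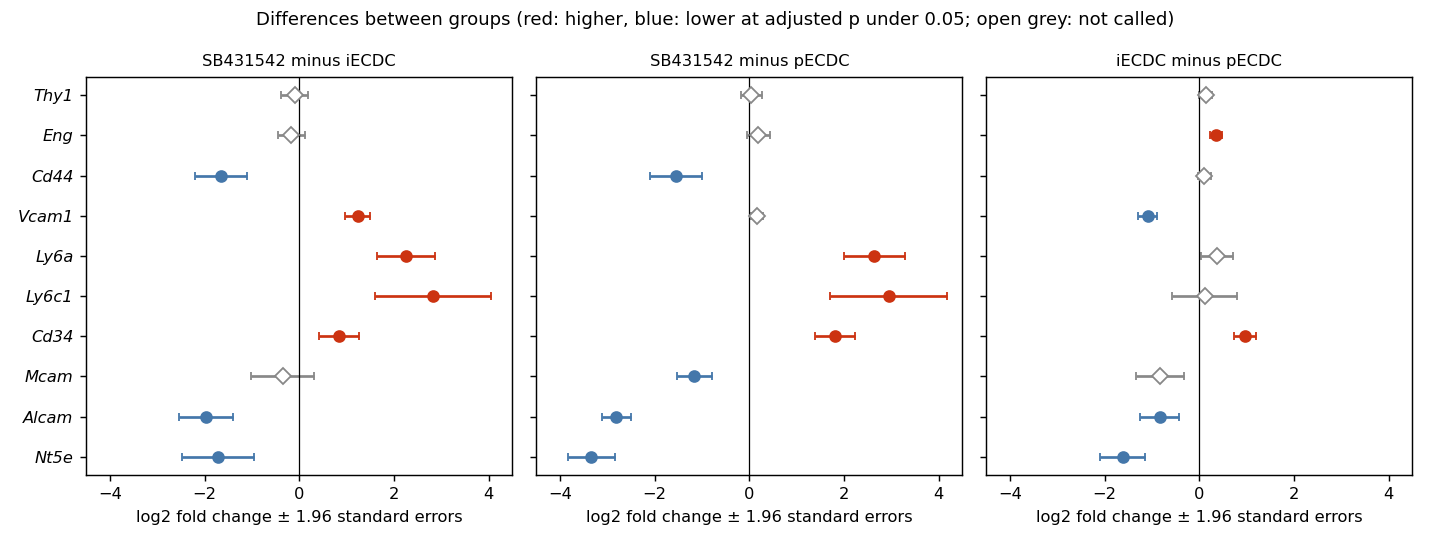
log2 fold change of each of the 10 genes (one axis) in the 3 comparisons, which share libraries. Bars are 1.96 standard errors, derived from edgeR's test. Filled circles passed at an adjusted p under 0.05 (red higher, blue lower) and open diamonds did not. Against iECDCs the treated cells range from -1.97 (Alcam) to 2.82 (Ly6c1), and Vcam1 is at 1.23 against iECDCs but at 0.16 against pECDCs.

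Several members had values in the 3 groups that differ in order. Vcam1 was at 58.5 ± 0.951 FPKM in pECDCs, 27.8 ± 4.14 FPKM in iECDCs and 64.8 ± 0.994 FPKM in treated cells (SD, n = 3 each), lowest in iECDCs. Nt5e and Alcam were lower in iECDCs than in pECDCs and lower again in treated cells, and Cd34 was higher at both steps. For Cd44, Ly6a and Ly6c1 the step from pECDCs to iECDCs did not pass, at 0.10, 0.38 and 0.11 on the log2 scale, and the treated cells differed from both.

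Ordered by mean FPKM within treated cells, Thy1 (125 ± 20.3) led, followed by Eng (76.0 ± 12.6), Vcam1 (64.8 ± 0.994), Ly6a (29.5 ± 11.6), Cd44 (22.9 ± 10.5), Cd34 (5.80 ± 1.60), Ly6c1 (4.78 ± 3.07), Mcam (1.18 ± 0.296), Alcam (0.257 ± 0.0354) and Nt5e (0.0885 ± 0.0297). The libraries of Eng and Vcam1 overlapped, as did those of Ly6a and Cd44, of Cd34 and Ly6c1, and of Ly6c1 and Mcam. In iECDCs Cd44 (72.9 ± 5.17) ranked above Vcam1 (27.8 ± 4.14) and Ly6a (6.23 ± 1.05), with no overlap between neighbours, so Cd44 went from above both genes to the range of Ly6a. In pECDCs Cd44 and Eng overlapped, as did Alcam and Cd34, and Nt5e and Ly6c1.

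Binding partners and pathway genes of the members were examined as a list of 39 receptors, ligands and enzymes. Of 32 tested between treated cells and iECDCs, 11 were higher, 11 lower and 10 did not pass, with a median log2 fold change of -0.24 against 0.00 for all genes. Around Nt5e, Alpl, another ecto-phosphatase that can degrade AMP, rose from a mean of 0.161 to 2.03 FPKM (log2 fold change 3.62, edgeR, adjusted p = 0.000967). The adenosine receptors Adora2a and Adora2b rose by log2 fold changes of 2.62 and 2.24 (edgeR, adjusted p = 0.00188 and 0.000984). Also listed around Nt5e, Enpp1 and Ada were lower (-1.93 and -1.16, edgeR, adjusted p = 0.00166 and 0.0204). Entpd2 and Pnp were higher (4.29 and 0.47, edgeR, adjusted p = 0.00311 and 0.0408), and Adk, Slc29a1 and Slc29a2 did not pass. Enpp1, Ada, Entpd2, Pnp, Adk, Slc29a1 and Slc29a2 are named after their values were seen. Beside Cd44, the hyaluronan synthase Has2 was lower, at 13.6 against 53.9 FPKM (log2 fold change -1.98, edgeR, adjusted p = 0.00395). The integrin subunit gene Itgb5, from the list of Thy1 partners, was lower at 14.1 against 75.3 FPKM (log2 fold change -2.41, edgeR, adjusted p = 0.000622). Podxl, a sialomucin of the Cd34 family, was higher at 1.55 against 0.344 FPKM (log2 fold change 2.19, edgeR, adjusted p = 0.00206). Alpl, Adora2a, Adora2b, Has2, Itgb5 and Podxl held in every alternative in which they could be tested, as did Enpp1 and Entpd2. Ada held in 11 and Pnp in 10 of 16.

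Other stromal and progenitor surface genes, 27 in all, gave 9 higher and 4 lower among 20 tested, with a median log2 fold change of 0.49. The largest were Dpp4, the ecto-peptidase CD26 (4.60, edgeR, adjusted p = 0.00201, 0.0475 to 1.20 FPKM), and Mme, the ecto-peptidase CD10 (3.68, edgeR, adjusted p = 0.00366, 0.132 to 1.71 FPKM). Procr, the endothelial protein C receptor, was lower (-2.12, edgeR, adjusted p = 0.00474). Cd82, a tetraspanin, and Pdgfrb, a PDGF receptor, were higher (1.32 and 1.23, edgeR, adjusted p = 0.0126 and 0.00902). Cd248, endosialin, was higher at 1.07 (edgeR, adjusted p = 0.0224) but held in 11 of 16 alternatives only.

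**Figure D4:**
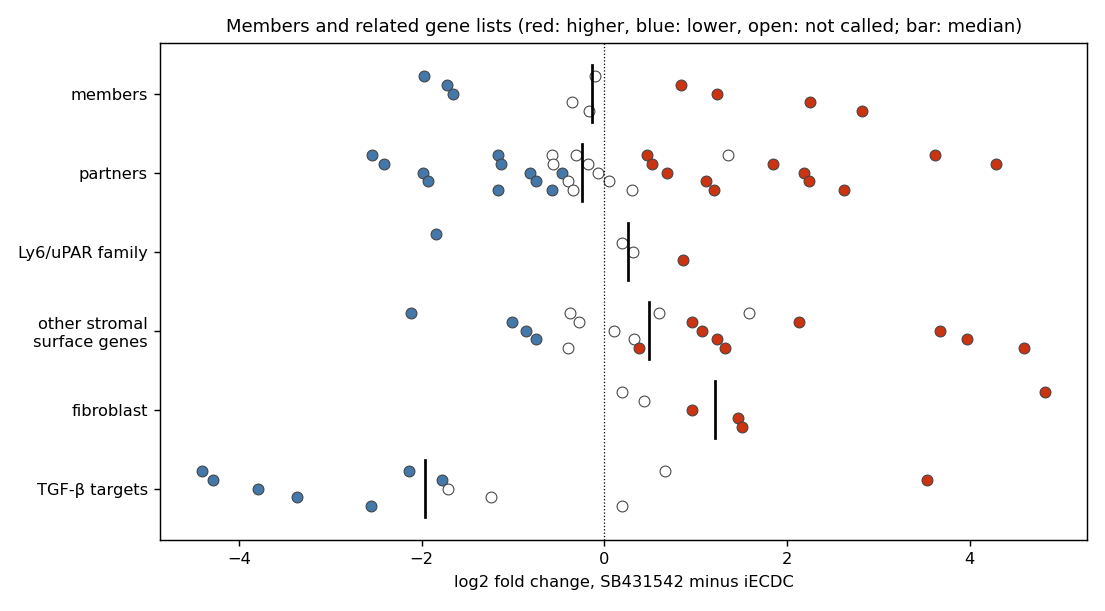
log2 fold change of treated cells against iECDCs for the tested genes of each list, 1 point per gene, with a bar at the median; filled points (red higher, blue lower) passed at an adjusted p under 0.05. The members have 4 called points above 0 and 3 below, the other stromal surface genes 9 and 4, and the TGF-β targets 1 and 7, with medians of -0.14, 0.49 and -1.96.

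Markers of other cell types were read in the same libraries, and their part in the member results was not tested. Ptprc (CD45), the pan-leukocyte marker, had at most 4 counts in any library, and the endothelial markers Pecam1 and Cdh5 at most 3 and 6, whereas other genes of the haematopoietic list were not near 0. Cd14, a monocyte receptor, was higher in treated cells, at 8.40 against 4.84 FPKM (log2 fold change 0.80, edgeR, adjusted p = 0.0154), Lyz2, lysozyme, was lower (-0.95, edgeR, adjusted p = 0.0284), and Csf1r, a macrophage growth factor receptor, had 463 to 635 counts in treated cells and did not pass (0.22, edgeR, adjusted p = 0.532). These 3 are named after their values were seen. Summed FPKM over 11 haematopoietic markers was 10.6 to 14.7 in iECDCs and 15 to 16.9 in treated cells, and over 10 endothelial markers 0.610 to 2.06 and 0.249 to 0.496. The haematopoietic sums did not overlap, with 7 of the 11 genes at no more than 3 counts in every treated library. Among the 10 endothelial markers only Sox17, a transcription factor gene, was tested. It was lower in treated cells (log2 fold change -3.44, edgeR, adjusted p = 0.0126), in 14 of 15 alternatives. Sox17 had 179, 110 and 30 counts in iECDCs, where it made up most of the endothelial sums, and 2, 24 and 5 counts in treated cells. It too is named after its values were seen. Of 8 mural markers 2 of 4 tested were lower, with sums of 817 to 1922 FPKM in iECDCs and 140 to 331 FPKM in treated cells. These sums were mostly Acta2, smooth muscle actin (log2 fold change -2.56, edgeR, adjusted p = 0.00581). Of 8 fibroblast markers 4 of 6 tested were higher, Dcn by 4.83, Col3a1 by 1.51, Tcf21 by 1.47 and Pdgfra by 0.96 on the log2 scale (edgeR, adjusted p = 0.00205, 0.0188, 0.00565 and 0.0018). Their summed FPKM was 767 to 924 in iECDCs and 620 to 1370 in treated cells, which overlapped. Of 11 epithelial and mesothelial markers 3 were tested and 2 were higher, Upk3b (log2 fold change 3.45, edgeR, adjusted p = 0.000912, 0.120 to 1.28 FPKM) and Wt1 (edgeR, adjusted p = 0.00615, 0.0119 to 0.284 FPKM). Of 6 cardiomyocyte markers 2 were tested and Tnnt2, cardiac troponin T, was lower (log2 fold change -3.07, edgeR, adjusted p = 0.00378, 1.41 to 0.169 FPKM).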

How the data were processed

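RNA was taken from pECDCs, iECDCs and SB431542-treated cells, with 3 libraries per group. Per the labels, TopHat2 2.0.9 and Bowtie2 2.0.6 were used, and mm9 is named, but 53499 of the 54532 genes in the table have the start and end of GENCODE M21 on GRCm38. The counting program and its use of strand are not given in the sources used here. The authors deposited unnormalized read counts per gene and FPKM, in which each count is scaled by gene length and by 1 factor per library (Pkm in 1 library departs from this). The authors' fold changes and p-values and their means were not used.

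Differences in counts were tested in R 4.3.3 with edgeR 4.0.16 (TMM, filterByExpr with a minimum count of 10 and a total of 15, quasi-likelihood test, Benjamini-Hochberg over all genes tested, adjusted p under 0.05), with only the compared groups in the fit. Levels are deposited FPKM. The quasi-likelihood test of edgeR gives no standard error. It was derived as the absolute log2 fold change divided by the square root of the F statistic. Intervals are 1.96 standard errors either side. They rest on a normal quantile and are too narrow for so few libraries, so they do not stand in for the test. Depth was 19462912 to 23951392 counts in pECDCs, 16568306 to 20204216 in iECDCs and 17063137 to 20849975 in treated cells. The placing of treated replicate 2 used log2(CPM + 1) from the counts with TMM over all 9 libraries. Alternatives were DESeq2 1.42.0, other scalings and filters, limma 3.58.1 on log2(FPKM + 1) or log2(FPKM + 0.1), all 9 libraries in the fit, a replicate block, a fold threshold and leaving out each library. The fold threshold was applied to numbers of called genes only and is not counted among the alternatives of a single gene. Cd34, at a log2 fold change of 0.84 against iECDCs, does not meet it. Leaving out both libraries that stood apart was added after seeing the data. Tests were first tried on simulated counts. Replicate numbers did not pair the libraries. The members and lists were chosen with earlier results of these data known, and the lists and their rule for names (at most 6 genes per list, called against iECDCs, mean of at least 1 FPKM in the higher group, largest changes) follow that choice. A single result of a listed gene is not reported here. Promoter windows are from RefSeq and biotypes from GENCODE. Tables and figures used python 3.11.15, pandas 2.3.3, numpy 2.4.6 and matplotlib 3.10.9.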

Additional observations from a re-analysis of the deposited data

How the results depend on the processing

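The directions of the 7 members called between treated cells and iECDCs held in every alternative run, and Cd44, Ly6a, Vcam1 and Alcam kept their calls in all of them. Leaving out 1 library at a time gave 2 to 4 higher members and 1707 to 7001 called genes against 4061. The count was 8951 without both libraries that stood apart, and 1434 when the log2 fold change also had to be 1 or more in size. For Mcam the log2 fold change ran from -0.57 to 0.09, the only reversal in this comparison. Between treated cells and pECDCs the same removals gave 2 to 5 higher members and 2453 to 9188 called genes against 4881, with 1330 at the fold threshold, and Thy1 ran from -0.10 to 0.11. Between iECDCs and pECDCs they gave 1 to 4 higher members and 1036 to 4467 called genes against 2258, and Ly6c1 ran from -0.21 to 0.37. In that comparison all 9 libraries in the fit left 1 higher member and 671 called genes, and the fold threshold left 0 higher members and 512 called genes. The cause of these changes was not tested, except that fewer libraries or a stricter rule by construction change the counts. Where 1 library of a group was missing, the spread was estimated from those remaining. The numbers of the replicates are shared between groups, but same-numbered libraries did not deviate together (correlations -0.29 to 0.04). With the replicate block in the fit 4 members were higher and 3 lower in treated cells than in iECDCs, with 3038 genes called, and the counts against pECDCs were 3 and 4, with 3886. Between iECDCs and pECDCs the block gave 2 higher and 4 lower members and 1791 genes, Mcam passing at -0.88 (edgeR, adjusted p = 0.0398). Levels of Nt5e and Ly6c1 rest on few counts, which limits their precision.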
